A study of Mus musculus with 24 samples.

Results

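The transporters described here carry monocarboxylates, dicarboxylates and sulfate across kidney cell membranes. They were chosen by name as 10 genes of the 55335 counted: Slc13a1, Slc13a2 and Slc13a3 of the sodium-coupled sulfate and carboxylate family, Slc5a8 and Slc5a12 of the sodium-coupled monocarboxylate transporters, and Slc16a1, Slc16a4, Slc16a7, Slc16a9 and Slc16a12 of the monocarboxylate transporter (MCT) family. All 10 passed the filter on low counts, with at least 283 reads on each gene in every kidney. RNA-Seq counts were available for whole kidneys of 24 adult mice on the C57BL/6J background, 6 in each of 4 groups. Male (cKOm) and female (cKOf) Pex5 lox/lox/Pax8-rtTA/LC1 mice carried an inducible deletion of Pex5, the receptor that brings proteins with a PTS1 signal into peroxisomes, in the renal tubule. Male (Ctrlm) and female (Ctrlf) littermates were Pex5 lox/lox. All mice, controls included, carried the floxed alleles and were given doxycycline (DOX) at 8 weeks of age for 2 weeks. Kidneys were collected at 14 weeks of age, 4 weeks past the last DOX, at zeitgeber time 9 by the labels' collection protocol, whereas the general protocol places all experiments at zeitgeber time 3. Pax8 directs Cre to the renal tubule, so glomerular, vascular and interstitial cells of the whole kidney kept Pex5. The controls lacked Pax8-rtTA and LC1, so the transgenes and the deletion cannot be told apart.

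The proximal tubule takes back filtered lactate, citrate, succinate and sulfate at its brush border with the help of the sodium gradient. Slc5a8 is known for uptake of lactate with high affinity in the straight, late part of the proximal tubule, and Slc5a12 for uptake with lower affinity from its early, convoluted part onward. At the basolateral side, Slc13a3 imports dicarboxylates that are exchanged for organic anions, and proton-linked MCTs move lactate, pyruvate and ketone bodies along their gradients.

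The reads that the authors assigned to genes numbered 19376152 to 28470831 in a kidney. Pex5 itself ran from 49.1 to 62.8 CPM (a gene's reads relative to the TMM-scaled library total) in Ctrlm and from 41.8 to 47.3 CPM in cKOm (log2 fold change -0.31, adjusted p = 0.0219), and from 43.0 to 61.7 CPM in Ctrlf and from 38.0 to 48.5 CPM in cKOf (-0.21, adjusted p = 0.177). The female groups thus overlapped. The study proposes that excision of the floxed allele was incomplete in cKOf, where some full-length Pex5 mRNA and some PEX5 protein remained. It also reported reduced Pex5 mRNA in both sexes and hardly any PEX5 protein in cKOm. By electron microscopy it found almost no peroxisomes in the proximal tubules of either cKO group. Sex and the extent of deletion therefore cannot be told apart in the genotype comparisons. The Pex5 counts given here span the whole gene and do not separate the floxed stretch from the rest. The 8 proximal tubule markers summed to between 6940 and 9773 CPM in all kidneys, and none was at 0. Transcripts of 12 hepatocyte genes summed to more than 500 CPM in 5 kidneys, Ctrlm replicates 1 to 4 and cKOm replicate 4, and to between 63.3 and 186 CPM in the other 19. In whole kidney RNA, fewer cells of a type and less RNA per cell cannot be told apart.

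Of the 10 genes, 3 differed between the sexes in both genotypes, Slc5a8 (higher in males) and Slc13a2 and Slc16a4 (lower in males). Of all 16092 genes tested, 4.91% passed in both genotypes with the same sign. The 250 bases before their transcription starts are given here (RefSeq, GRCm38.p6), to show the letters that precede the members that moved with sex. Slc5a8 lies at chr10:88885742-88885991 on the plus strand, Slc13a2 at chr11:78422235-78422484 on the minus strand and Slc16a4 at chr3:107290980-107291229 on the plus strand. Sequences run 5′ to 3′ toward the start, and capitals mark matches to the motifs searched.
Slc5a8: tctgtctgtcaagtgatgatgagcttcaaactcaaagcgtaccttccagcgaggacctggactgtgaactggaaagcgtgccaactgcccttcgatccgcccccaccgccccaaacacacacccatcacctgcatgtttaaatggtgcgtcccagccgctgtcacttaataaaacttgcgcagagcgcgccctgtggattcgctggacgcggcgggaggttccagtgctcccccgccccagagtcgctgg
Slc13a2: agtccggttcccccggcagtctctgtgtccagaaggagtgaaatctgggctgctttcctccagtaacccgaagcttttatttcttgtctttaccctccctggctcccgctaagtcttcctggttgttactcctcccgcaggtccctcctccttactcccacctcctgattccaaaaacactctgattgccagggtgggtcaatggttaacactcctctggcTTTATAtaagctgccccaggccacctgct
Slc16a4: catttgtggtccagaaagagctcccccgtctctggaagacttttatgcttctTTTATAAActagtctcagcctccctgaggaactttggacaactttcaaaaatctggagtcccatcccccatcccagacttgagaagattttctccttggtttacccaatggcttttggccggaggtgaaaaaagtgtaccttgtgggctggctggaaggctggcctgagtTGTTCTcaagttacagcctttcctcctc
The motifs, searched on both strands, were AGAACA (the core hexamer of androgen and glucocorticoid receptor elements), TTCNNNGAA (the STAT palindrome), AGGTCA (a nuclear receptor hexamer), GTTAAT (part of the HNF1 element) and TATAAA (the TATA box). In Slc16a4, AGAACA stood on the minus strand 28 to 23 bases before the start, and TATAAA stood on both strands in an overlapping stretch 198 to 191 bases before it. In Slc13a2, TATAAA stood on the minus strand 29 to 24 bases before the start. None of the 5 motifs was found in the Slc5a8 window. Of the 7 members with a window, 2 held AGAACA. The other was Slc16a12 (plus strand, 180 to 175 bases before the start), which did not pass between the sexes. Its window was not matched to the start of a transcript of the gene. Of 32851 windows of the same length, 16.08% held AGAACA, 12.37% TATAAA, 14.02% AGGTCA, 7.02% TTCNNNGAA and 6.43% GTTAAT. These matches are descriptions of letters and not of bound sites.

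Levels between genes were compared per length, as RPKM (CPM divided by the length of the gene's exons in kilobases), in Ctrlm first. Slc13a3 stood at the top with 154 ± 22.1 RPKM (SD, n = 6), and Slc16a1 at the bottom with 5.77 ± 1.00 RPKM. Between them came Slc5a12 (78.7 ± 19.02 RPKM), Slc5a8 (62.6 ± 4.66 RPKM), Slc16a9 (50.8 ± 7.88 RPKM), Slc16a4 (36.5 ± 6.11 RPKM), Slc13a1 (34.7 ± 9.19 RPKM), Slc16a12 (30.2 ± 2.68 RPKM), Slc13a2 (17.01 ± 2.75 RPKM) and Slc16a7 (13.3 ± 2.39 RPKM). The ranges of neighbours in this order overlapped, except for the steps from Slc13a3 to Slc5a12, from Slc16a12 to Slc13a2 and from Slc16a7 to Slc16a1. Slc13a3 and Slc5a12 held the first and second places, and Slc16a7 and Slc16a1 the last ones, in all 4 groups. Slc5a8 held place 3 in Ctrlm, place 4 in cKOm and place 8 in Ctrlf and cKOf.

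**Figure D1:**
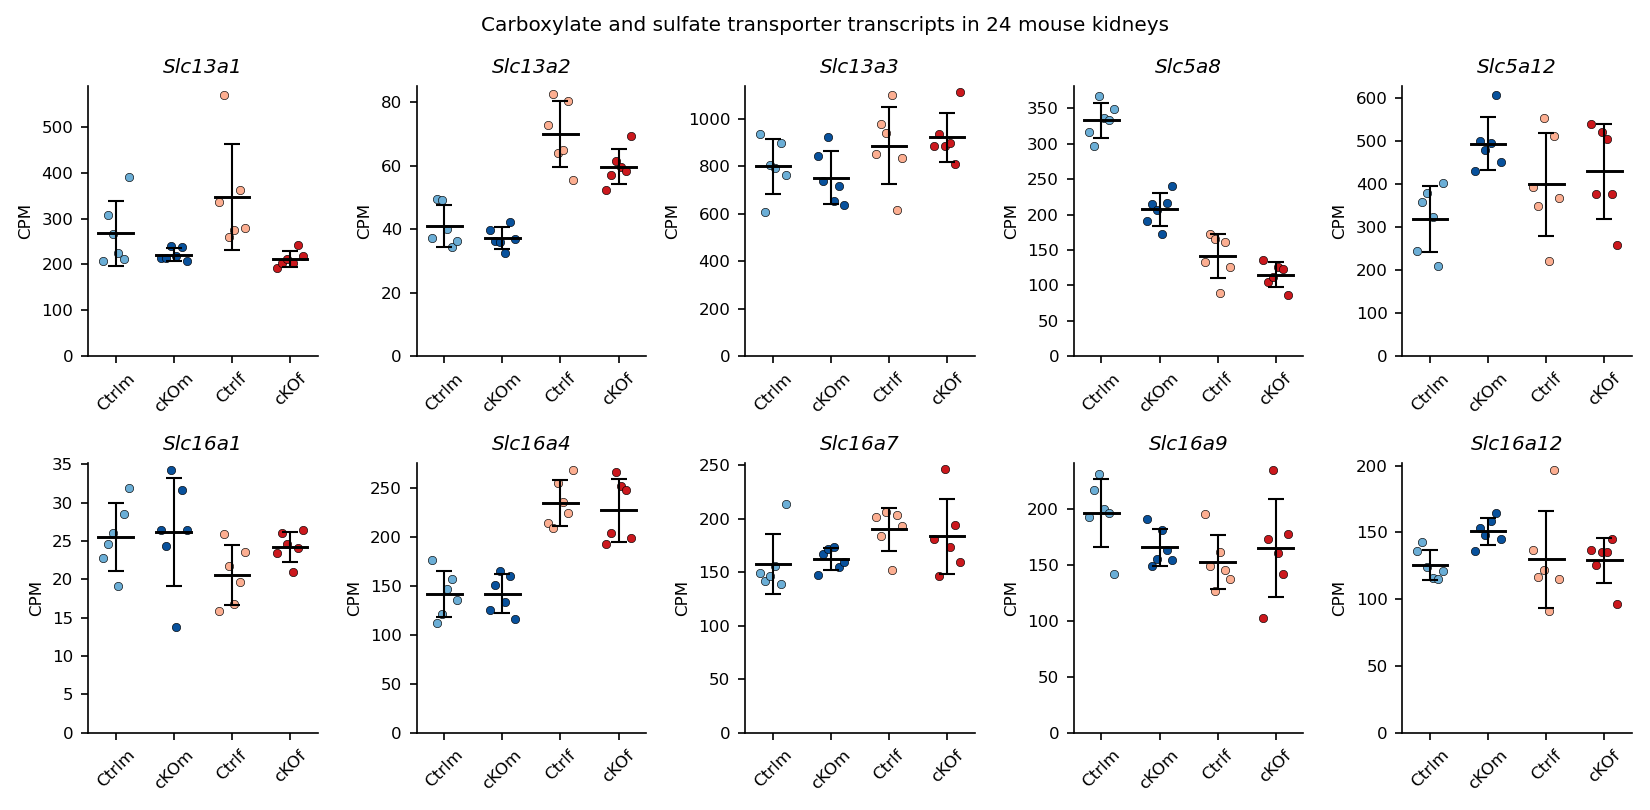
Levels of the 10 transporter transcripts in CPM (vertical axes, each from 0), with 1 point per kidney, a bar at the mean and whiskers of 1 SD, for Ctrlm, cKOm, Ctrlf and cKOf (n = 6 each). Slc5a8 does not overlap between Ctrlm (296.7 to 368 CPM) and cKOm (173 to 241 CPM), and the Slc13a1 points lie closer together in cKOm and cKOf than in Ctrlm and Ctrlf.

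The first comparison asked how loss of Pex5 in the male renal tubule altered these transcripts. Of the 10 genes, 1 passed the threshold (edgeR quasi-likelihood test with Benjamini-Hochberg adjustment, adjusted p under 0.05), against 9.05% of the 16092 genes tested. It was Slc5a8, and it fell, as did 4.9% of the genes tested, while 4.14% rose. A count of 1 in 10 lies near the share of all genes. The other 9 did not pass in males. Groups of 6 and 6 kidneys did not overlap in CPM for Slc5a8 and for Slc5a12, which was higher in cKOm but just missed the threshold, and 7.38% of all genes tested showed no overlap. The median log2 fold change of the 10 genes was -0.04, beside 0.01 for all genes.

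Slc5a8 ran from 296.7 to 368 CPM in Ctrlm, with a median of 335 CPM, and from 173 to 241 CPM in cKOm, with a median of 211 CPM. Every cKOm kidney was lower than every Ctrlm kidney. The means were 334 ± 24.8 and 207 ± 23.3 CPM (SD, n = 6 each), a log2 fold change of -0.69 (SE 0.12, adjusted p = 0.00062 by edgeR). The exact two-sided permutation test gave p = 0.00216, the smallest that 6 against 6 kidneys allow. The fall stood at -0.71 without the 5 kidneys rich in hepatocyte transcripts (adjusted p = 0.041) and at -0.82 with a hepatocyte score in the model (adjusted p = 0.000548). Leaving out those 5 kidneys left 2 Ctrlm mice, and 599 of 15955 genes then passed in males, beside 1456 of 16092 with all kidneys. Slc5a8 passed in all 34 alternatives, with log2 fold changes from -0.82 to -0.64. The gene (ENSMUSG00000020062) spans chr10:88885992-88929515 on the plus strand of GRCm38, and its counts were taken over all its exons.

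The marker list of the straight segment (S3) of the proximal tubule moved with Slc5a8 as a sum, but not in each of its genes. Its 6 genes summed to between 2140 and 3126 CPM in Ctrlm and between 768 and 1142 CPM in cKOm, and 3 of the 6 fell, the amino acid transporter Slc7a13 (-2.26), the phospholipid flippase Atp11a (-1.19) and the oxysterol hydroxylase Cyp7b1 (-2.56). Slc5a1 (0.06), Slc22a13 (-0.13) and Aqp11 (0.03), also on the list, did not pass. For the early segments, the sum of 6 markers was 1667 to 2389 CPM in Ctrlm and 2070 to 2333 CPM in cKOm, with 1 of 6 higher (Slc7a8, 0.61), which did not pass without the 5 kidneys rich in hepatocyte transcripts. The 8 markers of the whole proximal tubule summed to between 8457 and 9390 CPM in Ctrlm and between 6940 and 7867 CPM in cKOm, and 3 of the 8 were lower (Lrp2, Slc34a1 and Aqp1), none of which passed without those 5 kidneys. The part of segment markers in the Slc5a8 result was not tested.

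Slc5a12, the lower-affinity partner of Slc5a8, ran from 210 to 402 CPM in Ctrlm (median 341) and from 429.8 to 609 CPM in cKOm (median 488). Every cKOm kidney lay above the highest Ctrlm kidney. The means were 319.7 ± 77.2 and 495 ± 62.0 CPM (SD, n = 6 each). The log2 fold change was 0.63 (SE 0.19), with an adjusted p of 0.0512 by edgeR, just over the threshold. Unadjusted, edgeR gave p = 0.00258 and the exact two-sided permutation test over 12 kidneys p = 0.00216. The difference passed with limma-voom (0.66, adjusted p = 0.043), with DESeq2 (0.61, adjusted p = 0.0391), when males were fitted alone (0.61, adjusted p = 0.0154) and when p values were adjusted within each sex (adjusted p = 0.0281). It did not pass with the hepatocyte score in the model (0.46, adjusted p = 0.337) or without the 5 kidneys rich in hepatocyte transcripts (0.66, adjusted p = 0.34).

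As a description chosen after the values were seen, the ratio of Slc5a8 to Slc5a12 per length ran from 0.629 to 1.21 in Ctrlm and from 0.266 to 0.405 in cKOm. It ran from 0.227 to 0.377 in Ctrlf and from 0.164 to 0.255 in cKOf. Ctrlm kidneys thus stood apart from the other 3 groups in this ratio. Within groups both transcripts went up and down together across kidneys (Pearson r of the deviations from the group means 0.664, Spearman rho 0.57, n = 24 kidneys, permutation p = 0.0028 and 0.0113). Adjusted over the 45 pairs of members these p values were 0.063 and 0.0897, and without the 2 kidneys farthest from the median r was 0.367.

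**Figure D2:**
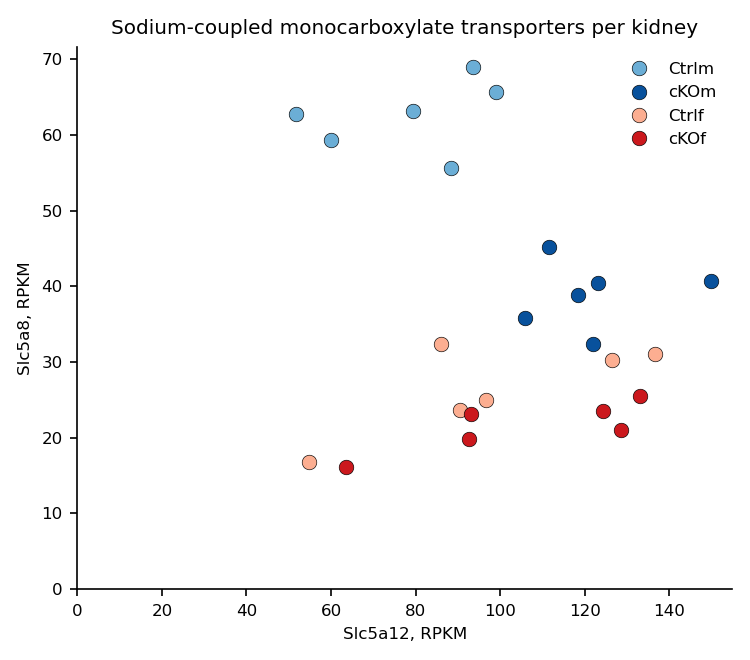
Slc5a8 (vertical axis, RPKM) against Slc5a12 (horizontal axis, RPKM), both axes from 0, with 1 point per kidney coloured by group. Ctrlm kidneys sit at the top left (55.7 to 69.0 RPKM of Slc5a8), cKOm kidneys to the right and lower (32.4 to 45.1 RPKM), and female kidneys of both genotypes lowest (16.2 to 32.4 RPKM).

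Among the Slc13 genes in males, Slc13a1, which takes up sulfate at the brush border, ran from 208 to 391 CPM in Ctrlm (median 245) and from 207 to 239 CPM in cKOm (median 216). All 6 cKOm kidneys lay below the Ctrlm median, but the groups overlapped and the log2 fold change was -0.28 (95% interval -0.59 to 0.04, adjusted p = 0.412 by edgeR). Slc13a2, the brush-border citrate and succinate cotransporter, had means of 41.0 ± 6.63 and 37.2 ± 3.42 CPM (-0.14, interval -0.36 to 0.07). Slc13a3 had means of 801 ± 115 and 753 ± 111 CPM (-0.09, interval -0.33 to 0.15).

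The MCT genes did not pass in males. Slc16a12, which transports creatine, ran from 115 to 143 CPM in Ctrlm (median 123) and from 136 to 164 CPM in cKOm (median 150), and 5 of 6 cKOm kidneys lay above the highest Ctrlm kidney. Its log2 fold change was 0.26 (SE 0.12, adjusted p = 0.296 by edgeR), and adjusted p values over all alternatives ran from 0.0739 to 0.57. Slc16a9, a transporter linked to carnitine, had means of 197 ± 30.5 CPM in Ctrlm and 166 ± 16.7 CPM in cKOm (-0.25, interval -0.53 to 0.04), with all 6 cKOm kidneys below the Ctrlm median. The log2 fold changes of Slc16a1 (0.04, interval -0.28 to 0.35) and Slc16a7 (0.04, interval -0.19 to 0.27), proton-linked carriers of lactate and pyruvate, were close to 0, as was that of Slc16a4 (0.00, interval -0.23 to 0.23). Intervals this wide do not show that the groups were alike.

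**Figure D3:**
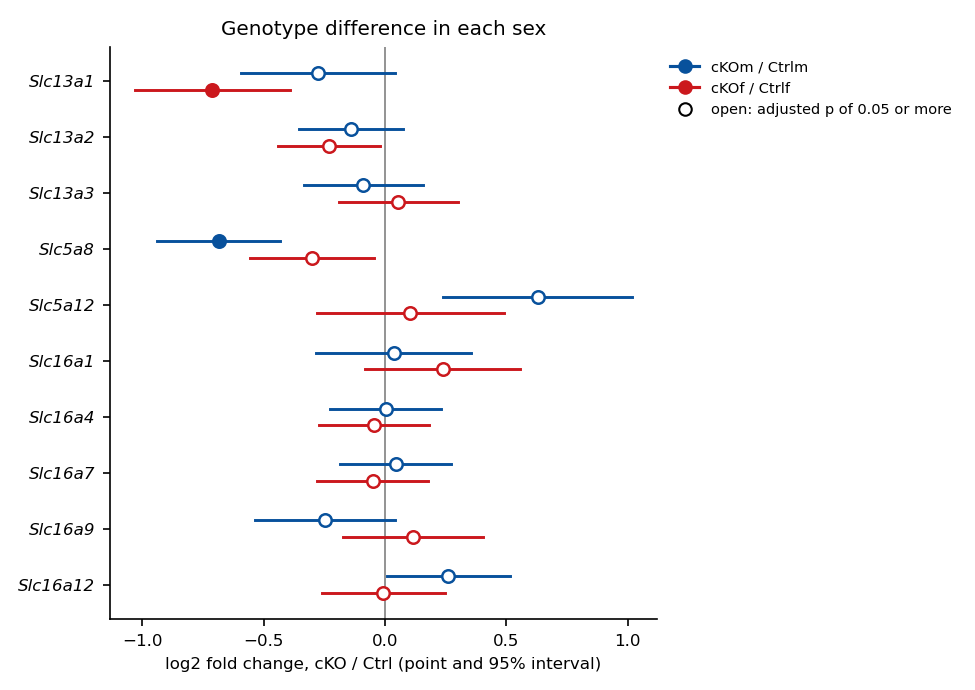
Log2 fold changes of cKO over Ctrl (horizontal axis) for each of the 10 genes, in males (blue) and females (red), with 95% intervals from edgeR. Filled points passed the threshold, namely Slc5a8 in males (-0.69) and Slc13a1 in females (-0.71), and all other points are open.

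The same question was asked in females. Again 1 of the 10 genes passed, against 0.851% of genes tested, and it was another member. Slc13a1 fell in cKOf, as did 0.46% of genes tested, and its groups were the only ones of the 10 that did not overlap (0.559% of all genes). The median log2 fold change of the 10 genes was -0.03, beside 0.00 for all genes. Slc5a8 in females ran from 89.3 to 173 CPM in Ctrlf (median 147) and from 86.2 to 136 CPM in cKOf (median 118).

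Slc13a1 ran from 261 to 571 CPM in Ctrlf, with a median of 308 CPM, and from 193 to 242 CPM in cKOf, with a median of 207 CPM. Every cKOf kidney was lower than every Ctrlf kidney. The means were 348 ± 116 and 212 ± 17.2 CPM (SD, n = 6 each), a log2 fold change of -0.71 (SE 0.16, adjusted p = 0.00456 by edgeR). The exact two-sided permutation test gave p = 0.00216. The highest Ctrlf kidney, replicate 2, stood well above the next (362 CPM), and without it the log2 fold change was -0.51 (adjusted p = 0.0136 by edgeR). That kidney also had the highest sum of 4 erythroid transcripts (209.9 CPM) and of hepatocyte transcripts (128 CPM) in Ctrlf. With the hepatocyte score in the model the fall was as large (-0.72, adjusted p = 0.0071 by edgeR), and the part of erythroid transcripts was not tested. The 8 proximal tubule markers summed to between 8574 and 9773 CPM in Ctrlf and between 7824 and 9031 CPM in cKOf, and none of them passed by edgeR, limma-voom or DESeq2 (3 had an unadjusted p under 0.05). Their log2 fold changes were negative for 7 of the 8, with a median of -0.15, beside 0.00 for all genes. Their part in the Slc13a1 result was not tested. The fall of Slc13a1 passed in all 34 alternatives. The gene (ENSMUSG00000029700) spans chr6:24088283-24168092 on the minus strand of GRCm38.

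The spread of Slc13a1 between kidneys was wide in the controls and narrow in the cKO groups. Its coefficient of variation was 26.5% in Ctrlm and 33.4% in Ctrlf, against 6.11% in cKOm and 8.11% in cKOf. A single kidney carried much of the control values, which were 17.2% without Ctrlm replicate 6 (391 CPM) and 14.4% without Ctrlf replicate 2 (571 CPM), while with any 1 kidney left out the cKO values stayed at or below 6.73% in cKOm and 9.06% in cKOf. No test of the spread was made, and this contrast was noticed after the values were seen. For the other 9 genes the coefficient ran from 6.38% to 30%, and Slc13a2, Slc5a12 and Slc16a12 also had lower coefficients in the cKO group of each sex than in its controls. For Slc13a2 they were 16.2% in Ctrlm and 14.9% in Ctrlf, against 9.18% in cKOm and 9.43% in cKOf.

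For Slc5a8 in females the log2 fold change was -0.30 (SE 0.12, adjusted p = 0.204 by edgeR), with all 6 cKOf kidneys below the Ctrlf median. It passed when Ctrlf replicate 4, the lowest control, was left out (-0.41, adjusted p = 0.0172). Slc13a2 had means of 70.1 ± 10.5 CPM in Ctrlf and 59.7 ± 5.63 CPM in cKOf (-0.23, interval -0.44 to -0.02, adjusted p = 0.256 by edgeR). Slc5a12 was at 400 ± 120 and 430 ± 111 CPM (0.10, interval -0.28 to 0.49). Slc13a3, at 888 ± 164 and 922 ± 103 CPM, had a log2 fold change of 0.06 (interval -0.19 to 0.30). Among the MCT genes, the log2 fold changes in females ran from -0.05 (Slc16a7 and Slc16a4) to 0.24 (Slc16a1), and none passed.

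Whether the genotype difference depended on sex was tested by an interaction term. None of the 10 genes passed by edgeR (2.31% of all genes did, 0.82% upward and 1.49% downward), limma-voom or DESeq2, and 1 had an unadjusted p under 0.05, Slc5a8 (difference of log2 fold changes -0.39, SE 0.18, adjusted p = 0.331 by edgeR). For Slc13a1 the difference was 0.44 (interval -0.01 to 0.89, adjusted p = 0.393), and for Slc5a12 0.52 (interval -0.02 to 1.07, adjusted p = 0.401). The falls of Slc5a8 in males and of Slc13a1 in females were therefore not shown to differ between the sexes.

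Sex itself set several of these transcripts apart. Between Ctrlm and Ctrlf, 3 of the 10 genes passed the threshold, against 16.8% of genes tested, and between cKOm and cKOf the same 3 passed, against 8.14%. These were Slc5a8, higher in males, and Slc13a2 and Slc16a4, lower in males. Of all genes, 8.71% were higher and 8.11% lower in males among controls, and 4.14% and 4% among cKO mice. In all 3 the sexes did not overlap in either genotype, as was seen in 7.35% of all genes for the controls and 6.77% for cKO mice. The share of all genes that passed in both genotypes with the same sign was 4.91%. All 3 genes passed in both genotypes under all 32 alternatives of the sex comparisons.

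Slc5a8 stood at 334 ± 24.8 CPM in Ctrlm and 141 ± 31.5 CPM in Ctrlf, a log2 difference of 1.24 (SE 0.13, adjusted p = 2.1e-08 by edgeR). In cKO mice, 207 ± 23.3 CPM in males met 115 ± 17.6 CPM in females, a log2 difference of 0.85 (SE 0.12, adjusted p = 2.68e-05). The lowest cKOm kidney (172.8 CPM) was level with the highest Ctrlf kidney (172.7 CPM). The S3 marker sums were 553 to 802 CPM in Ctrlf and 433 to 680 CPM in cKOf, lower than in males of the same genotype. The 6 markers did not all go this way. Among controls 3 passed as higher and 2 as lower in males (16.8% of all genes passed), and among cKO mice 3 and 1 (8.14%). The part of these markers in the sex difference was not tested.

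Slc13a2 ran from 34.3 to 49.3 CPM in Ctrlm (median 38.7) and from 55.6 to 82.6 CPM in Ctrlf (median 68.9), a log2 difference of -0.77 (SE 0.10, adjusted p = 3e-06 by edgeR). In cKO mice it ran from 32.5 to 42.3 CPM in males and from 52.5 to 69.4 CPM in females (-0.68, SE 0.10, adjusted p = 5.16e-05). Every female kidney was thus above every male kidney. Reads on the antisense gene Slc13a2os, whose exons overlap those of Slc13a2, numbered at most 28 in a kidney, beside at least 657 on Slc13a2.

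Slc16a4, an MCT whose main substrate is not settled, ran from 112 to 176 CPM in Ctrlm (median 141) and from 209 to 268 CPM in Ctrlf (median 229.9). The log2 difference was -0.73 (SE 0.11, adjusted p = 2e-05 by edgeR). In cKO mice it ran from 116 to 165 CPM in males and from 193 to 267 CPM in females (-0.68, SE 0.11, adjusted p = 0.00013). Its male and female ranges were clear of each other, and its genotype differences were within 0.05 of 0 on the log2 scale in both sexes.

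**Figure D4:**
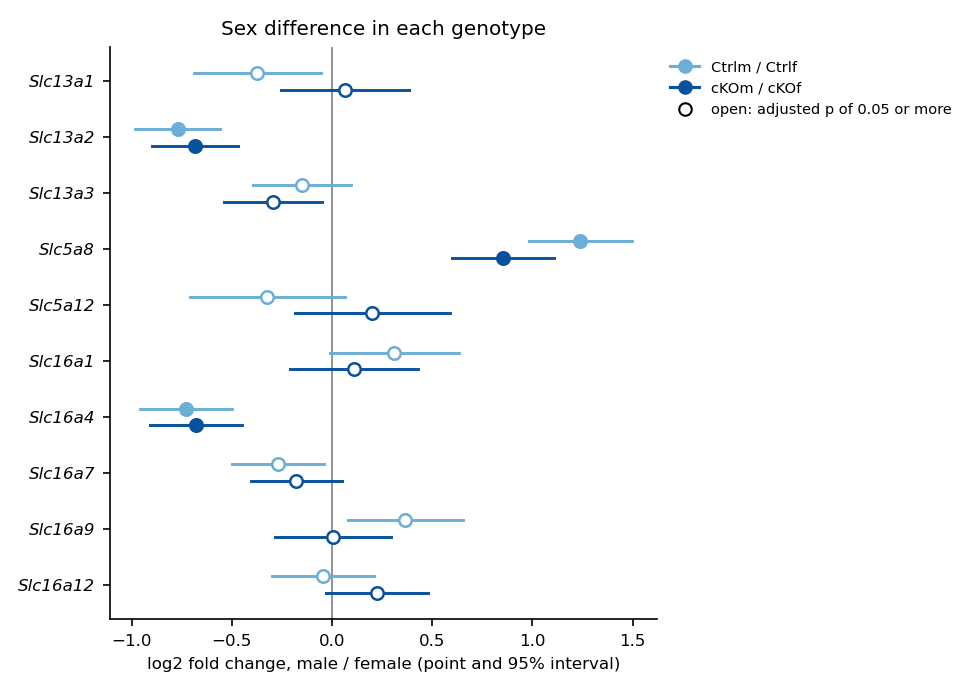
Log2 fold changes of males over females (horizontal axis) for each of the 10 genes, in controls (light blue) and cKO mice (dark blue), with 95% intervals from edgeR. Slc5a8 lies to the right of 0 (1.24 and 0.85) and Slc13a2 and Slc16a4 to the left, with filled points for both genotypes, and the other 7 genes have open points.

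The other 7 genes did not pass between the sexes in either genotype. In controls, Slc13a1 was 0.37 lower in males on the log2 scale (adjusted p = 0.105 by edgeR) and Slc16a9 differed by 0.37 in the other direction (adjusted p = 0.0752). Without Ctrlm replicate 6, 6 genes passed between Ctrlm and Ctrlf, Slc13a1, Slc16a7 and Slc16a9 being added, and 2733 of the 16079 genes tested passed in that fit, close to the share with all kidneys. Slc16a9 also passed with DESeq2 (0.39, adjusted p = 0.0357) and without Ctrlf replicate 1, cKOf replicate 1 or cKOf replicate 3. In cKO mice, all 6 cKOm kidneys were above the cKOf median for Slc16a12 (log2 difference 0.22, adjusted p = 0.304), and 5 of 6 were below it for Slc13a3 (-0.29, adjusted p = 0.135).

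Genes whose pattern over the 24 kidneys was most like that of the 2 members that fell were found by Pearson r of log2 CPM among 9438 genes. For Slc5a8 these were the organic anion transporter family genes Slc22a28 (r = 0.953) and Slc22a30 (r = 0.941). Slc22a28 fell from 107 ± 17.6 to 33.5 ± 7.50 CPM in males (-1.68, adjusted p = 5.27e-06 by edgeR) and from 8.55 ± 3.26 to 4.83 ± 1.66 CPM in females (-0.83, adjusted p = 0.0343). For Slc13a1 they were Gpt2, the mitochondrial alanine transaminase (r = 0.739), and Gprc5c, an orphan receptor (r = 0.717). Gpt2 had means of 58.0 ± 6.13, 43.9 ± 5.85, 92.1 ± 15.5 and 54.6 ± 8.35 CPM in Ctrlm, cKOm, Ctrlf and cKOf. These r values hold the differences between the groups as well as those between kidneys.

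A list of 49 other genes around these substrates was described in the same fit, and 48 were tested (all but Slc16a8). It holds carriers and enzymes, and also partner and scaffold proteins. The list was written with earlier results of these data known, so its share beside that of all genes is a description only. In males 16 of the 48 passed (33.3%, beside 9.05% of all genes), 4 higher and 12 lower, and their median log2 fold change was -0.22, beside 0.01 for all genes. With the hepatocyte score in the model 12 of the 48 passed, beside 899 of all 16092 genes tested. Without the 5 kidneys rich in hepatocyte transcripts 9 passed, beside 599 of 15955, against 1456 of 16092 in the main fit. In females none of the 48 passed by edgeR, limma-voom or DESeq2, and 4 had an unadjusted p under 0.05, Slc16a10, Suox and Slc6a8 among them.

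Of the 10 other Slc13 and Slc16 genes tested, 3 rose in males. Slc16a11, a pyruvate carrier, rose from 4.44 ± 1.02 to 8.60 ± 1.47 CPM (0.95, adjusted p = 0.00307), Slc16a10, an aromatic amino acid transporter, from 64.0 ± 3.68 to 83.5 ± 6.07 CPM (0.38, adjusted p = 0.00328), and Slc16a6 from 16.5 ± 2.02 to 26.1 ± 6.08 CPM (0.66, adjusted p = 0.0192). Slc16a6 and Slc16a10 did not pass without the 5 kidneys rich in hepatocyte transcripts. The chaperone subunits of MCTs, Bsg (-0.03) and Emb (0.28), did not pass.

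Around sulfate, Slc26a1, the basolateral exchanger through which sulfate taken up by Slc13a1 leaves the cell, fell from 193 ± 20.1 to 134 ± 15.2 CPM in males (-0.53, adjusted p = 0.00318). The other 4 sulfate and oxalate exchangers listed did not pass. Of 6 genes that form or activate sulfate, 3 fell in males, Cdo1 (cysteine dioxygenase, -0.62), Suox (sulfite oxidase, -0.43) and Papss1 (-0.29), and Papss1 did not pass without the 5 kidneys rich in hepatocyte transcripts. Slc13a1, at the entry side, fell past the threshold in females (-0.71) and not in males (-0.28), while Slc26a1 did not pass in females. The interaction term did not pass for either gene, so a difference between the sexes was not shown.

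Around lactate and dicarboxylates, 4 of 10 enzymes fell in males and none rose. Ldhd, which oxidizes D-lactate, went from 1085 ± 197 to 402 ± 51.4 CPM (-1.43, adjusted p = 1.19e-09), Bdh1, a ketone body dehydrogenase, from 131 ± 16.1 to 61.9 ± 9.60 CPM (-1.09, adjusted p = 4.2e-08), Ldha from 322 ± 39.9 to 220 ± 8.47 CPM (-0.55, adjusted p = 0.00078), and Aco1 from 366 ± 26.8 to 288 ± 18.97 CPM (-0.35, adjusted p = 0.0033). Slc22a6, the basolateral exchanger of organic anions for dicarboxylates, fell (-0.65, adjusted p = 0.000418), while Slc22a8 did not pass (0.10). The mitochondrial dicarboxylate carrier Slc25a10 fell (-0.46, adjusted p = 0.00686), and so did the brush-border scaffold Slc9a3r1 (-0.41, adjusted p = 0.0159). Slc25a10, Slc9a3r1 and Aco1 did not pass without the 5 kidneys rich in hepatocyte transcripts. Of the 10 enzymes, 4 passed without these kidneys, as with them, Aco1 not being among the 4. Slc6a8, the creatine transporter, rose from 204.5 ± 11.8 to 269 ± 10.8 CPM (0.39, adjusted p = 9.94e-05) and did not pass without those kidneys (0.32, adjusted p = 0.0886), and the carnitine genes Slc22a5 and Bbox1 did not pass.

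**Figure D5:**
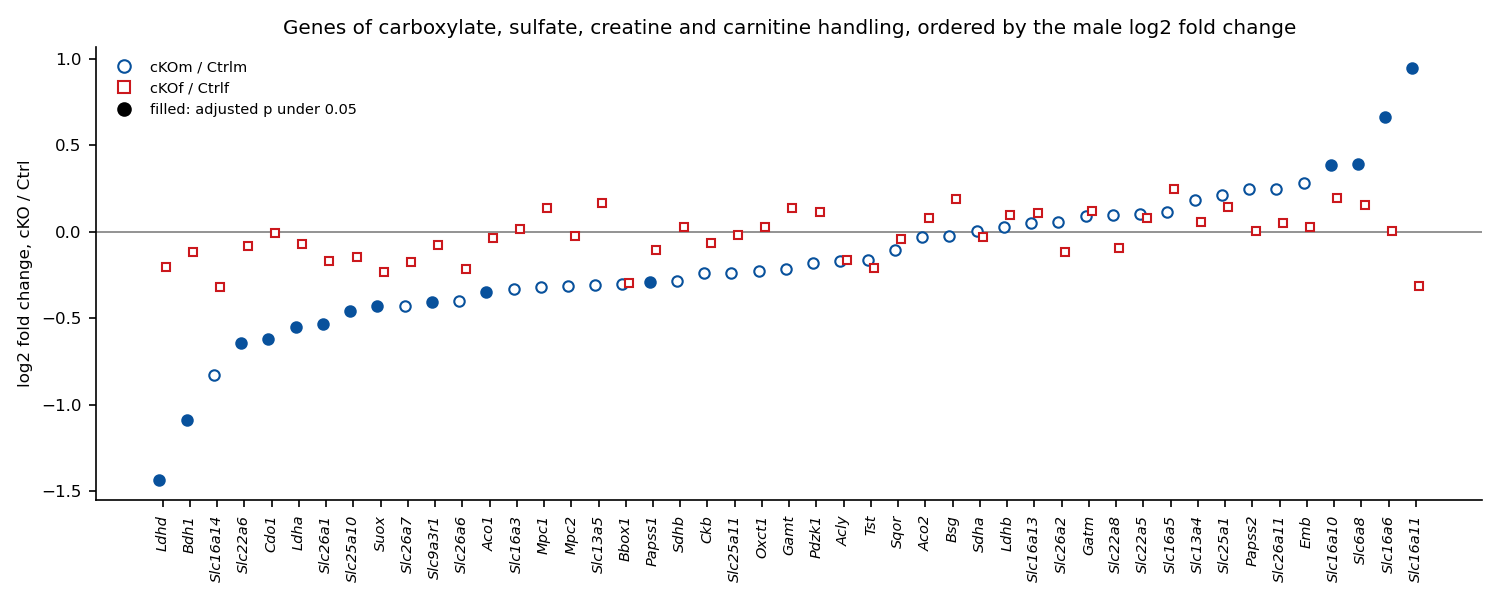
Log2 fold changes of cKO over Ctrl (vertical axis) for tested genes of carboxylate, sulfate, creatine and carnitine handling, ordered along the horizontal axis by the male value, with males as blue circles and females as red squares. Filled symbols passed the threshold, which in males ran from -1.43 (Ldhd) to 0.95 (Slc16a11), and no female symbol is filled.

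The male and female genotype differences of these list genes were compared by the interaction term. It passed for 4 of 48 genes (8.33%, beside 2.31% of all genes), Ldhd (-1.23), Bdh1 (-0.97), Cdo1 (-0.61) and Slc16a11 (1.26).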

How the data were processed

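RNA-Seq libraries of 24 whole kidneys were made by the authors from total RNA with Illumina TruSeq Stranded mRNA reagents. The authors deposited 1 file of unnormalized read counts per gene and kidney, on GRCm38. The submitters' processing notes name cutadapt 1.8, STAR 2.5.3a and HTSeq 0.9.1, and the strand setting of the counting is not given in the sources used here. The 5 closing lines of each file for reads not counted on a gene were set aside. Reads that fell on no annotated gene were 6.41 to 9.25% of those placed, and ambiguous ones 1.01 to 1.30%.

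Groups came from the labels. Names, positions and exon lengths were taken from a GENCODE annotation of GRCm38. A gene entered the tests if any 1 kidney reached 1 CPM, which 16092 did. All kidneys were fitted in a single edgeR model (version 4.0.16, R 4.3.3) of the 4 group means after TMM scaling. Quasi-likelihood tests compared cKO with Ctrl in each sex, their interaction, and males with females in each genotype. Benjamini-Hochberg adjustment pooled both genotype tests and otherwise ran over all genes of a test, and calls were made under an adjusted p of 0.05. Log2 CPM used a prior count of 2. Single genes were also compared by exact permutation over 924 arrangements. Correlations used 100000 permutations and Python 3.11.15. The procedure was tested on simulated data in which 200 genes were changed by 1 on the log2 scale. It recovered 168 of them in males and 169 in females, with 11 and 16 false calls. Kidneys of a group differed by more than counting noise in all 60 pairs.

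All 10 members are named in each comparison, with the genes of the substrate list past the threshold and, for each member past it in a genotype comparison, the 2 genes of at least 10 CPM on average with the most similar pattern. A gene of the substrate list is counted but not reported here. Members and lists were chosen with earlier results of these data known. Alternatives were limma-voom (limma 3.58.1), which the study used, DESeq2 1.42.0, RLE scaling, 2 other filters, each sex alone, separate adjustment of each sex, a block for replicate number, a score of 12 hepatocyte transcripts as a covariate, each mouse left out and, chosen after seeing the data, removal of 5 kidneys rich in hepatocyte transcripts. The promoters of 7 of the 10 members were found in the RefSeq table.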

Additional observations from a re-analysis of the deposited data

Results flagged for a closer look

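Each of the 10 transporters was checked in each of the 4 groups for a kidney far from the other 5, by the gap to its nearest neighbour over the range of the group (Dixon's test at the 95% level). Chance alone flags about 1 in 20 groups, and 2 of the 40 were found.

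Slc13a1 in Ctrlf replicate 2 was 570.7 CPM, and the next kidney was at 362 CPM. This kidney is one of the controls of the female Slc13a1 difference, which was -0.51 on the log2 scale without it (adjusted p = 0.0136 by edgeR).

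Slc16a7 in Ctrlm replicate 6 was 214 CPM, and the next kidney was at 156 CPM. The same kidney was the highest of its group for 4 of the 10 transporters, Slc13a1 among them at 391 CPM, and had the lowest sum of hepatocyte transcripts in its group (104 CPM). Without it, Slc16a7 passed between Ctrlm and Ctrlf, with an adjusted p of 0.013.

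The genotype difference depended on sex for 4 genes of the substrate list by the edgeR interaction term. The difference between the male and female log2 fold changes was -1.227 for Ldhd (adjusted p = 9.79e-06), -0.966 for Bdh1 (0.000154), 1.264 for Slc16a11 (0.0106) and -0.613 for Cdo1 (0.0128). Without the 5 kidneys rich in hepatocyte transcripts, Ldhd, Bdh1 and Slc16a11 still passed and Cdo1 did not (adjusted p = 0.119), and with the hepatocyte score the adjusted p of Cdo1 was 0.0644.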

How the results depend on the processing

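Leaving out each mouse in turn gave 1 to 2 members past the threshold in males (2 without Ctrlf replicate 3 or 4, Ctrlm replicate 6 or cKOf replicate 6, Slc5a12 being added), 1 to 2 in females (2 without Ctrlf replicate 4), 3 to 6 between control sexes (6 without Ctrlm replicate 6) and 0 to 1 genes of the substrate list in females (1 without Ctrlf replicate 5). Of all genes tested in those fits, 1152 to 1726 passed in males, 108 to 173 in females and 2333 to 2936 between control sexes. In males 2 members passed with limma-voom, DESeq2, each sex alone and adjustment within each sex, Slc5a12 being added. Of all genes, 1392, 1756, 1543 and 1915 passed in males in these 4 settings. Between control sexes 4 passed with DESeq2, Slc16a9 being added, beside 2859 of 16092 genes. Without the 5 kidneys rich in hepatocyte transcripts, which leaves 2 Ctrlm mice, 9 genes of the substrate list passed in males in place of 16 (599 of all genes in place of 1456). Without them or with the hepatocyte score, Slc16a1 passed between control sexes (adjusted p 0.0215 and 0.0332). The cause of these changes was not tested.

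Kidneys that share a number came from different mice, and the correlation of their deviations ran from -0.06 to 0.12 in males and from -0.20 to 0.09 in females, so they were not taken as pairs. With the replicate block, 1 member passed in males and 1 in females, none for the interaction and 3 in each sex comparison, as without it. In the same fit 16 genes of the substrate list passed in males and 0 in females. Of all 16092 genes, 1268 passed with the block in males, 110 in females and 271 for the interaction. Between the sexes 2415 passed in controls and 1140 in cKO mice. The block changed the sign of 1 uncalled value, Slc16a12 in females (0.0082).

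Signs turned only for values that had not passed. In males, Slc16a4 was -0.019 with RLE, DESeq2 and the stricter filter, -0.023 with every gene, -0.020 with the hepatocyte score and -0.018 with each sex alone, and with the score Slc16a1 was -0.19 and Slc16a7 -0.041. Without the 5 kidneys, the male values were 0.081 for Slc13a2, -0.11 for Slc16a1, -0.066 for Slc16a4 and -0.17 for Slc16a7, the interaction -0.014 for Slc16a4 and -0.11 for Slc16a7, and the sex difference in cKO mice -0.029 for Slc16a9. That last value was -0.0022 with the stricter filter and -0.071 with the score. Slc16a12 was 0.021 in females with limma-voom and 0.0052 between control sexes with the score. With mice left out, ranges that crossed 0 were -0.027 to 0.12 (Slc13a3, females), -0.056 to 0.16 (Slc16a1, males), -0.056 to 0.076 (Slc16a4, males), -0.011 to 0.12 (Slc16a4, interaction), -0.15 to 0.0070 (Slc16a7, females), -0.013 to 0.22 (Slc16a9, females), -0.10 to 0.13 (Slc16a9, cKO sexes), -0.10 to 0.15 (Slc16a12, females), -0.11 to 0.13 (Slc16a12, control sexes) and -0.028 to 0.22 (Slc5a12, females).

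Each group held 6 mice, each transporter had at least 283 reads in every kidney, so the spread between mice limits these comparisons more than depth does. Reads on a gene and on its antisense partner cannot be told apart where counting did not use strand, and the largest number of reads on any gene overlapping a member was 28 in a kidney. Transcript levels do not give the amount or activity of a transporter.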

Other observations

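Genes of the substrate list, which was written with earlier results of these data known, also differed by sex. Of the 48 tested, 12 passed between Ctrlm and Ctrlf (25%, beside 16.8% of all genes), 8 higher and 4 lower in males, and 11 passed between cKOm and cKOf (22.9%, beside 8.14%), 6 higher and 5 lower. The organic anion exchangers that trade on dicarboxylates went opposite ways in both genotypes, Slc22a6 being higher in males (log2 difference 1.03 in controls and 0.46 in cKO mice) and Slc22a8 lower (-0.94 and -0.75). Ldhd was higher in males in both (1.84 and 0.61), and so was Slc13a5, the plasma membrane citrate transporter of liver (2.75 and 2.27), whose level was low at 1.60 ± 0.68 CPM in Ctrlm. Bdh1 passed between the sexes in cKO mice, where it was lower in males (-1.14). Slc26a1 was higher in males in controls (0.56). Ctrlm kidneys also had the highest sums of hepatocyte transcripts (104 to 984 CPM, beside 88.1 to 128 CPM in Ctrlf). With the hepatocyte score in the model 9 of the 48 passed between Ctrlm and Ctrlf. Of all 16092 genes, 1641 passed with the score and 2707 without it.

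Over the 45 pairs of the 10 transporters, the largest Pearson r between kidneys of a group was that of Slc13a3 and Slc16a12, which went opposite ways. The deviations of log2 CPM from the group means had a Pearson r of -0.759 and a Spearman rho of -0.578 over 24 kidneys (permutation p = 0.00025 and 0.00562, adjusted over the pairs 0.0112 and 0.0897). The sign was negative within 4 of 4 groups, and r was -0.612 without the 2 kidneys farthest from the median. The relation was noticed among all pairs, and the adjusted p of the rank correlation did not pass the threshold. By Spearman rho, Slc16a7 with Slc5a12 (0.63) and Slc13a1 with Slc13a2 (0.605) stood higher in size, and without the 2 farthest kidneys Slc13a1 with Slc13a2 had the larger r (0.694).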
